A study of Mus musculus with 12 samples.

Results

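The histone genes of cultured neural stem/progenitor cells (NSPCs) were described, 83 of the 24525 genes in the count tables. They were taken by symbol alone and no measured value entered the rule, but earlier results of these data were known. Those with a Hist symbol, 69 genes, formed the replication-dependent class, and 14 genes formed the variant class (the H2af genes, H3f3a, H3f3b, H1f0 and H1fx). By histone type, the Hist genes comprised 6 H1, 19 H2A, 19 H2B, 12 H3 and 13 H4 genes.

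The cells were grown as neurospheres from the forebrain of E14.5 C57BL/6 mouse embryos and collected at passage 1 of a culture with EGF and bFGF. The groups were 3 wild-type libraries and 3 Ythdf2-/- libraries. The Ythdf2-/- embryos descended from a CRISPR-Cas9 made allele with LoxP sites around the 5′ UTR and first exon, recombined by a ubiquitously expressed Cre, so the loss was not limited to neural cells. The replicates were called biological, but which embryos went into each culture was not given in the sources used here, so the p-values measure the spread between these 6 samples. Each library was the input fraction of an m6A immunoprecipitation, that is, fragmented mRNA kept aside before the antibody was added, and the immunoprecipitated libraries were not analysed here.

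Histones package DNA into nucleosomes. Replication-dependent histone mRNAs are made in S phase, when new DNA needs packaging, and most of them carry no poly(A) tail: they end just past a conserved stem-loop that is bound by the protein SLBP. Variant histones replace the canonical ones outside replication or at particular sites, and their mRNAs are usually polyadenylated. Of the 14 variant genes here, 6 have introns in RefSeq and 8 have a single exon. The RNA measured here had been purified in repeated rounds with oligo-dT beads, which hold poly(A) tails, so counts of the Hist genes are counts of what such a purification kept.

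Most Hist mRNAs differ from most variant ones in the sequence of the 3′ end, which is shown for members described below and, in Hist1h3c, for the second most common stem-loop core. In GRCm38 (the assembly also called mm10), 65 of the 67 Hist genes with a coding sequence in RefSeq held a match to the histone stem-loop consensus 21 to 58 bases after the stop codon, in the 3′ UTR. Of the variants, only H2afx held one. Below, the 16 bases of the stem-loop are in capitals, within 26 bases of the transcript strand.
Hist1h1c stem-loop: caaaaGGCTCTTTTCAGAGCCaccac
Hist1h1b stem-loop: ccaaaGGCTCTTTTCAGAGCCaccta
Hist1h2bc stem-loop: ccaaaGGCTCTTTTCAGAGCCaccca
Hist3h2a stem-loop: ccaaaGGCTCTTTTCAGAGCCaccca
Hist1h3c stem-loop: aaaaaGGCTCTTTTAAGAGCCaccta
H2afx stem-loop: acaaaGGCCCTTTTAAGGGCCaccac
The first 4 share 1 core, which 41 of the 66 members with a match had. The Hist1h3c core occurred in 9 members, and that of H2afx in 1. These stem-loops lay at chr13:23739512-23739527 on the plus strand for Hist1h1c, at chr13:21779837-21779852 on the minus strand for Hist1h1b, at chr13:23684647-23684662 on the plus strand for Hist1h2bc, at chr11:58955172-58955187 on the plus strand for Hist3h2a, at chr13:23745047-23745062 on the minus strand for Hist1h3c and at chr9:44335240-44335255 on the plus strand for H2afx.

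A few members have RefSeq transcripts that run on past the stem-loop, or lack it, and end after a poly(A) signal. The last 30 bases of transcripts of both kinds follow, with the poly(A) signal (AATAAA or ATTAAA) nearest the end in capitals.
Hist1h1c, only transcript: caatccaaaaggctcttttcagagccacca
Hist1h2bc, transcript of 1 exon: aattccaaaggctcttttcagagccaccca
Hist1h2bc, transcript of 2 exons: gatgtatatatAATAAAtgtcatgtaaagc
Hist1h2be, transcript of 2506 bases: tgtgttccttATTAAAgcattcctgattga
Hist2h2be, only transcript: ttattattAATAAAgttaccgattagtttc
H3f3a, only transcript: tgctattaaaatacATTAAActatacctgc
The Hist1h1c transcript and the 1-exon transcript of Hist1h2bc stop 4 and 5 bases after the stem-loop. The 2-exon transcript of Hist1h2bc splices past it, that of Hist1h2be goes on for 1861 bases, and Hist2h2be, in a transcript of 2667 bases, had no match to the consensus. H2afx held both kinds of end, a stem-loop with 822 more bases after it.

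The targeted gene and the libraries were checked first. Ythdf2 had 840, 961 and 999 counts in the wild-type libraries and 137, 198 and 138 in the Ythdf2-/- libraries (log2 fold change -2.66 ± 0.18 SE, adjusted p = 0.0547, edgeR quasi-likelihood test). The libraries held 11029827 to 13185778 counts. Wild type 3 stood apart: 24 genes of S phase and the cell cycle summed to 392 CPM (counts scaled to a library of 1000000) in it and to 3171 to 4753 CPM in the other 5, and each of the 24 was lowest in it. Its 9 oligodendrocyte lineage markers summed to 4193 CPM against 1729 to 2162, its 9 astroglia markers to 14430 against 4356 to 11340, its 10 neuron markers to 2745 against 1700 to 2091 and its 5 mesenchymal markers to 32.3 against 0.666 to 4.26. In these lists 5, 4, 7 and 3 single markers were highest in wild type 3, while Olig1, Olig2 and Cspg4 (oligodendrocyte lineage), Gap43 (neuron) and Col1a1 (mesenchymal) were lowest in it. The 10 neural progenitor markers did not move together: Vim, Fabp7 and Nes, which make up most of their sum (3530 CPM against 4907 to 6591), were lowest in wild type 3, and the other 7, Sox2 and Pax6 among them, were highest in it. The 8 microglia and macrophage markers (Ptprc and C1qa at 0 throughout) summed to 9.96 CPM in wild type 3 and to 3.24 to 6.58 in the other 5, and the 5 endothelial ones (Cldn5 at 0 throughout) to 0.914 in wild type 3 and to 1.26 to 2.21 in the others. Reads on 4 Y-linked genes were present in wild type 1, wild type 2 and Ythdf2-/- 3 and near 0 in the other 3. The part of these differences in the values below was not tested, and each tested member's fold change is also given without wild type 3.

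Variant genes carried nearly all histone reads in both genotypes. They took 25065, 26620 and 19869 counts in the wild-type libraries and 21236, 28824 and 19396 in the Ythdf2-/- libraries, whereas the 69 Hist genes took 754, 820 and 755 against 895, 1026 and 772. The Hist share of histone counts was therefore 2.92% to 3.66% in wild type and 3.44% to 4.04% in Ythdf2-/-, ranges that overlap. In the authors' tables of expected counts that share was 23.55% to 46.94% by library, over only 161 expected counts of Hist genes and 312 of variants in all 6, so the division between the classes differed between the deposited tables. As these are bulk samples, fewer cells of a type and less RNA per cell cannot be told apart in any of these values.

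Per length, the H2A.Z gene H2afz and the pair of H3.3 genes led. On the scale of CPM per kilobase (RPKM), the level over the 6 libraries was 418 ± 183 (SD, n = 6) for H2afz, 347 ± 78.1 for H3f3b and 278 ± 29.3 for H3f3a, and neighbours in this order lay within these spreads of each other. H2afy followed at 81.7 ± 11.4, H2afv at 66.2 ± 10.2, H2afx at 47.1 ± 19.1 and H1f0 at 39.4 ± 4.38. The highest Hist gene, Hist1h2bc, came eighth at 35.3 ± 4.23, ahead of H2afy2 at 26.5 ± 5.56 and Hist1h1c at 21.5 ± 4.29. In wild type 3 alone the order differed. H2afz stood at 103 there, below H3f3b at 489 and H3f3a at 307, and Hist1h2bc at 29.6, below H2afy2 at 33.5.

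Of the 83 members, 18 had enough reads to be tested, namely 10 of the 14 variants and 8 of the 69 Hist genes. None of the 18 passed an adjusted p of 0.05 in edgeR's quasi-likelihood test, nor in DESeq2 or limma-voom, and 0 had an unadjusted p under 0.05. Over all 13112 genes tested, edgeR called 0 (0.0%) at the adjusted threshold and 476 (3.63%) at the unadjusted one, and at the adjusted threshold DESeq2 called 31 and limma-voom 0. In 1335 of all genes (10.2%) the 3 libraries of one genotype all lay above the 3 of the other, and 0 of the 18 members did. The adjusted p was 0.999 for every member. Median log2 fold changes, Ythdf2-/- against wild type, were -0.03 for the 10 variants (4 above 0 and 6 below), 0.15 for the 8 Hist genes (6 above 0 and 2 below) and -0.01 for all genes. Without wild type 3 they were -0.11 and 0.23 over the same members and 0.01 over the 13283 genes then tested. The Hist median was 0.033 over the 11 Hist genes that passed the filter in that fit. Of the 21 members tested there, 2 (9.52%) had an unadjusted p under 0.05, H2afz and Hist1h2be, beside 16.6% of all genes.

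**Figure D1:**
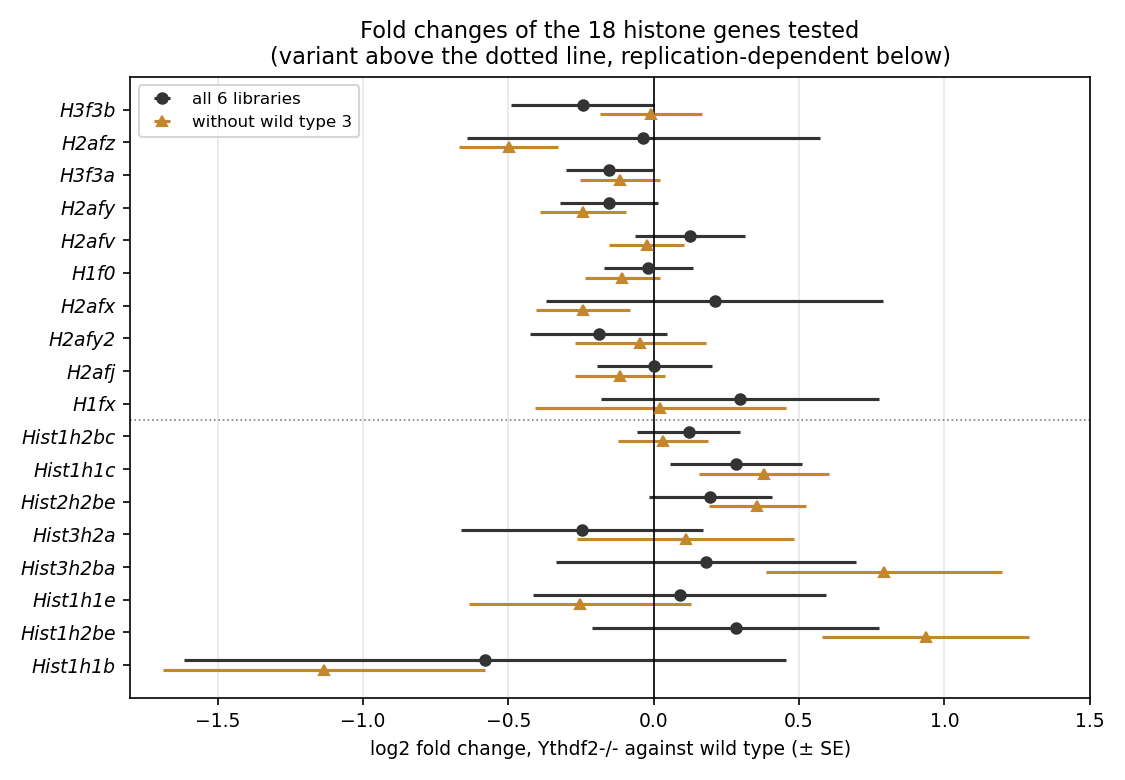
Log2 fold change (x axis, Ythdf2-/- against wild type, ± SE) of the 18 histone genes tested, from all 6 libraries (circles) and without wild type 3 (triangles). From all 6 libraries the values run from -0.58 (Hist1h1b) to 0.30 (H1fx), and the bars of H2afz and H2afx are far shorter without wild type 3.

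H3.3, the replacement H3 that is laid down through the whole cell cycle, is encoded as the same protein by H3f3a (chr1:180802560-180813605, minus strand, 4 exons) and H3f3b (chr11:116021961-116024504, minus strand, 4 exons). H3f3b reached 638, 639 and 975 CPM in wild type and 671, 722 and 508 CPM in Ythdf2-/-. The highest value belonged to wild type 3 and the lowest to Ythdf2-/- 3, and the genotypes overlapped. Its log2 fold change was -0.24 ± 0.25 (SE), and -0.01 ± 0.18 without wild type 3. H3f3a was steadier, at 308.5, 311.0 and 334 CPM against 276, 329.7 and 252 CPM (log2 fold change -0.15 ± 0.15, and -0.12 ± 0.14 without wild type 3), and the genotypes overlapped again. Within the pair, H3f3b supplied 67.3% to 74.5% of the counts in wild type and 66.8% to 70.9% in Ythdf2-/-. Only 13.5% of the 50-base windows of H3f3a exons, and 69.3% of those of H3f3b, occurred once in the genome, so the split of reads between these genes and their copies is uncertain.

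H2A.Z is the H2A variant of promoter and enhancer nucleosomes, and its genes H2afz (chr3:137864487-137866922, plus strand, 5 exons) and H2afv (chr11:6427226-6444443, minus strand, 5 exons) encode near-identical proteins. H2afz stood at 631, 556 and 104 CPM in wild type and at 406, 499 and 356 CPM in Ythdf2-/-. The first wild-type pair lay above every Ythdf2-/- library and wild type 3 far below all of them. The log2 fold change was -0.04 ± 0.61 over the 6 libraries and -0.50 ± 0.17 without wild type 3 (adjusted p = 0.247, edgeR). Among the libraries with Y-linked reads the log2 ratio of the H2afz means was -0.74, and among those without, which include wild type 3, it was 2.11. H2afv varied less, at 109.7, 120.2 and 81.05 CPM against 104, 130.0 and 105 CPM, again lowest in wild type 3 (log2 fold change 0.12 ± 0.19, and -0.02 ± 0.13 without it). H2afz accordingly took 85.2%, 82.2% and 56.3% of the counts of the 2 genes in wild type and 79.6%, 79.3% and 77.2% in Ythdf2-/-. Of the exonic windows of H2afz, 20.4% occurred once in the genome, against 100.0% for H2afv.

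H2afx (chr9:44334715-44336077, plus strand, 1 exon) encodes H2A.X, the variant that is phosphorylated around DNA breaks. It stood at 86.7, 75.9 and 15.4 CPM in wild type and 57.1, 80.6 and 68.25 CPM in Ythdf2-/-. As for H2afz, wild type 3 was the lowest of the 6, at 19.0% of the mean of the other wild-type libraries, beside 17.6% for H2afz and 8.69% for the summed cell-cycle genes. The log2 fold change of H2afx was 0.21 ± 0.58, and -0.24 ± 0.16 without wild type 3.

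The macroH2A genes, whose products carry a large extra domain and mark silent chromatin, did not separate the genotypes. H2afy (chr13:56073622-56135550, minus strand) reached 192, 164.5 and 147 CPM against 141, 176 and 134.7 CPM (log2 fold change -0.15 ± 0.17, and -0.24 ± 0.15 without wild type 3). H2afy2 (chr10:61738647-61783864, minus strand) reached 48.9, 48.8 and 64.05 CPM against 44.8, 61.5 and 35.6 CPM (log2 fold change -0.19 ± 0.24, and -0.05 ± 0.22 without wild type 3), and 243 of its exonic bases lie opposite an exon of Aifm2. Both pairs of ranges overlapped.

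Linker histones bind the DNA between nucleosomes, and H1f0 encodes the linker histone best known from cells that have stopped dividing. It stood at 100.3, 93.1 and 79.1 CPM in wild type and at 86.5, 103 and 80.1 CPM in Ythdf2-/- (log2 fold change -0.02 ± 0.15, and -0.11 ± 0.13 without wild type 3), with overlapping groups and the lowest value in wild type 3. The other variant linker gene, H1fx, ranged from 4.84 CPM in wild type 3 to 15.5 CPM in Ythdf2-/- 2 (log2 fold change 0.30 ± 0.48, and 0.02 ± 0.43 without wild type 3). H2afj, which encodes H2A.J, stayed between 10.96 and 15.05 CPM (log2 fold change 0.00 ± 0.20, and -0.12 without wild type 3). The remaining variants were barely seen. H2afb1 and H2afb2 had 0 counts in every library, H2afb3 had 7 counts over the 6 libraries and H2afy3, which has no coding sequence in RefSeq, had 20. A count of 0 allows up to 3 counts, that is 0.228 to 0.272 CPM in these libraries, for counting error only.

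**Figure D2:**
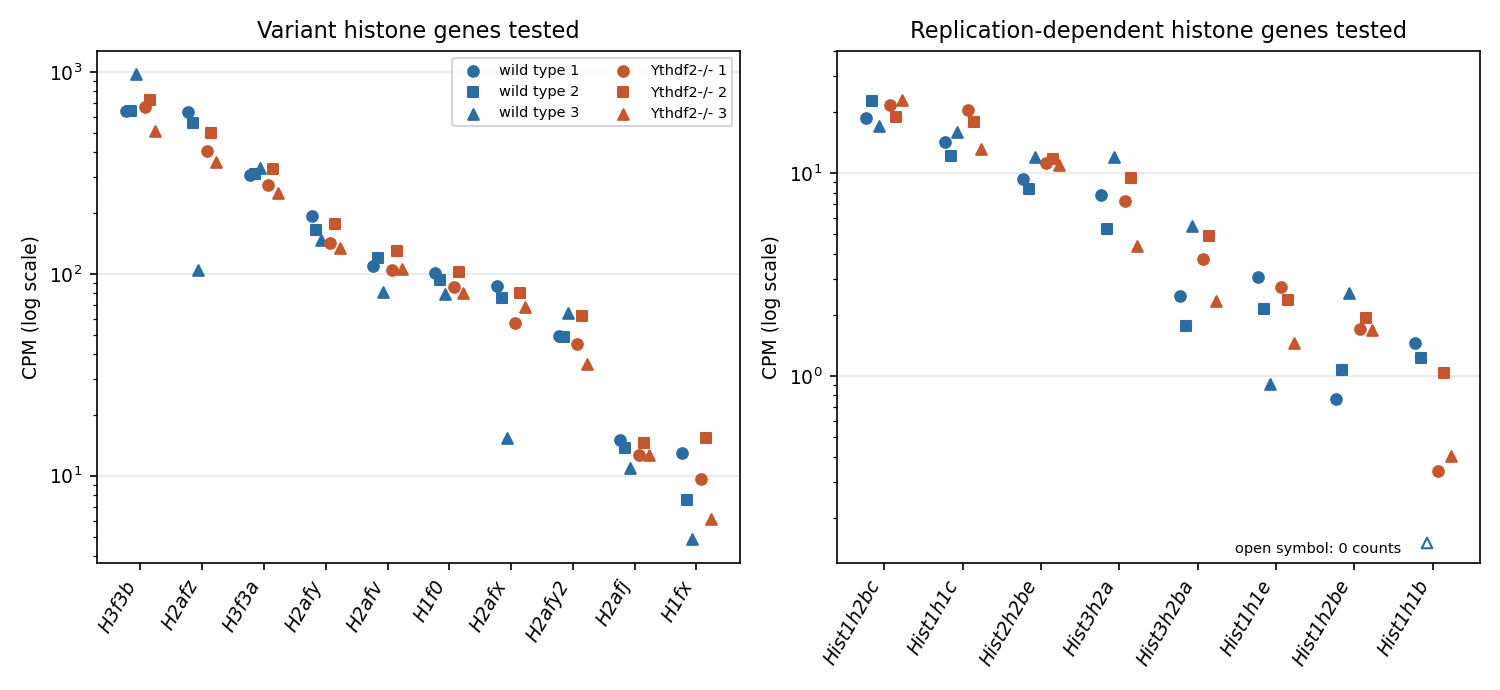
CPM on a log scale of the 10 variant (left) and 8 replication-dependent (right) histone genes tested, 1 symbol per library, wild type in blue and Ythdf2-/- in orange. Wild type 3 (blue triangles) is the lowest for H2afz, at 104 CPM, and for H2afx, at 15.4 CPM, and the genotypes overlap for every gene.

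The Hist genes were unevenly detected. In every library 4 genes, Hist1h2bc, Hist1h1c, Hist2h2be and Hist3h2a, took 76.3% to 82.9% of the Hist counts. At the other end, 11 of the 69 had 0 counts throughout, 49 never exceeded 3 counts in a library, and 6 had at least 10 counts in every library. Of those 11, 5 were above 0 in the tables of expected counts, led by Hist2h2aa2 with 28.7 and Hist1h2ap with 23.8 expected counts over the 6 libraries, so a count of 0 here was not always 0 in the other tables. At least 1 count was seen for 38, 42 and 23 Hist genes in wild type and for 39, 37 and 31 in Ythdf2-/-. The core types H3 and H4, with 25 genes that dividing cells need as much as H2A and H2B, summed to no more than 18 and 15 counts in a library.

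Counts of the Hist genes did not sort cleanly by annotated transcript end, and no test was run. The 59 Hist genes that had a stem-loop and no transcript with a poly(A) signal, all ending 4 to 8 bases past the stem-loop, had a median of 5 counts over the 6 libraries. A stem-loop together with a transcript ending after a poly(A) signal was annotated for 6 genes, with a median of 4 counts. They were Hist1h2bc with 1501 counts, Hist1h2be with 118, Hist1h2bp with 6, Hist1h3e with 2, and Hist1h2bq and Hist1h2br with 0. Hist1h2bq and Hist1h2br had no 50-base window that occurred once in the genome. A poly(A) signal with no stem-loop match was found in Hist2h2be, with 775 counts. Among the 59, Hist1h1c with 1143 counts and Hist3h2a with 558 stood above the rest without an annotated poly(A) signal. All 508 bases of Hist3h2a lie within exons of Trim17 on the same strand, and Trim17 itself had 8 to 14 counts per library. The 59 had a median of 44.4% of their windows unique, and the part of this in their low counts was not tested. Over 90% were unique in 8 of them, and besides Hist3h2a they had 56 (Hist1h1b), 22 (Hist1h1a), 14 (Hist2h2bb), 5 (Hist2h4), 1 (Hist4h4 and the testis gene Hist1h1t) and 0 counts (the testis gene Hist1h2aa).

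**Figure D3:**
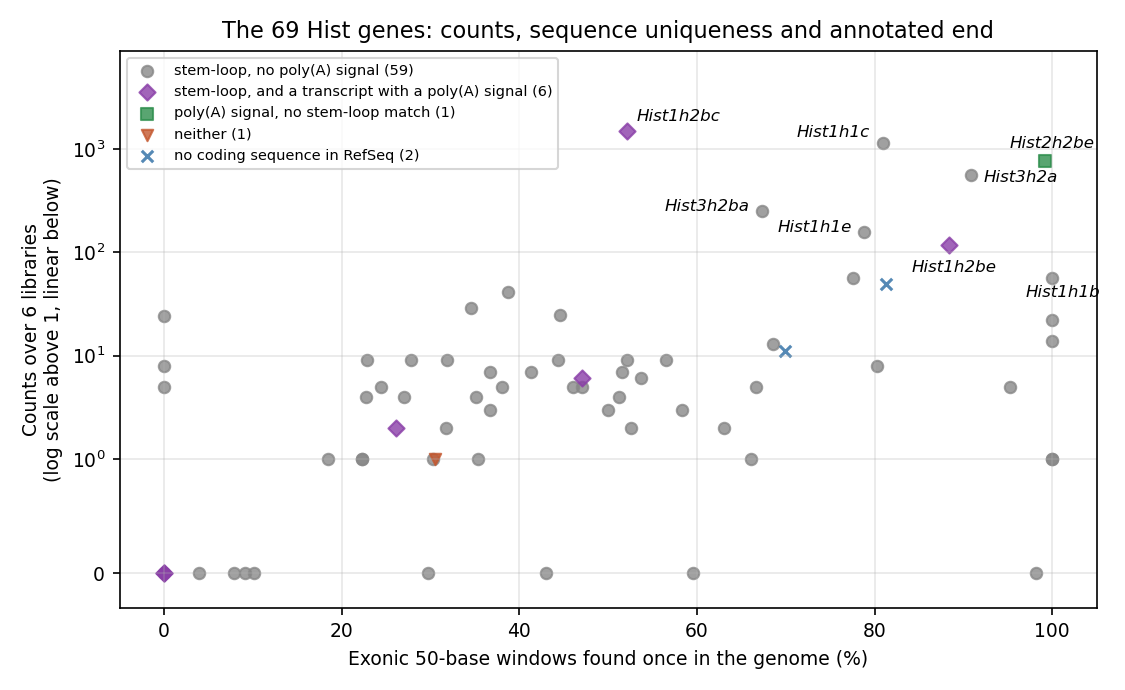
Counts summed over the 6 libraries (y axis, log above 1 and linear below) of the 69 Hist genes against the percentage of their exonic 50-base windows that occur once in GRCm38 (x axis), with symbols for the annotated transcript end. Hist1h2bc leads with 1501 counts at 52.1% unique windows, and several genes near 100% have 22 counts or fewer.

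As a class, the Hist genes summed to 64.5, 62.5 and 68.98 CPM in wild type (65.3 ± 3.32, SD, n = 3) and to 76.2, 75.9 and 62.1 CPM in Ythdf2-/- (71.4 ± 8.09, n = 3). Ythdf2-/- 3 lay below all wild-type libraries and the other Ythdf2-/- libraries above them. The log2 ratio of the means was 0.13 for this class and -0.12 for the variants, whose sums were 2143, 2030 and 1815 CPM against 1809, 2132 and 1559 CPM. Among the libraries with Y-linked reads (2 wild type, 1 Ythdf2-/-) these ratios were -0.03 and -0.42, and among those without (1 wild type, 2 Ythdf2-/-) they were 0.14 and 0.12. Wild type 3 did not stand out in the Hist sum, at 109% of the mean of the other wild-type libraries. The 61 Hist genes too low to test, summed, were at 42.6% of that mean in it (34 counts against 77 and 105), and the 8 tested were at 117%.

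The most abundant H2B genes, Hist1h2bc and Hist2h2be, are 2 of the genes with a poly(A) signal shown above, and Hist1h2be is another. Hist1h2bc (chr13:23684199-23692480, plus strand) had 18.7, 22.7 and 17.1 CPM in wild type and 21.7, 18.9 and 23.0 CPM in Ythdf2-/- (log2 fold change 0.12 ± 0.18, and 0.03 ± 0.16 without wild type 3). Hist2h2be (chr3:96221072-96223738, plus strand, 99.2% of windows unique) had 9.32, 8.31 and 11.97 CPM against 11.2, 11.8 and 10.9 CPM. Wild type 3 was the highest of the 6 and the other wild-type libraries were the lowest (log2 fold change 0.19 ± 0.21, and 0.36 ± 0.17 without wild type 3). Hist1h2be (chr13:23583670-23621124, minus strand) showed the same order, with 0.77, 1.07 and 2.56 CPM against 1.70, 1.92 and 1.69 CPM. Its log2 fold change went from 0.28 ± 0.49 to 0.94 ± 0.36 without wild type 3 (adjusted p = 0.275, edgeR).

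Hist3h2ba and Hist3h2a are neighbours on chromosome 11, and their transcripts end at a stem-loop. Hist3h2ba (chr11:58948911-58949372, plus strand), an H2B gene, had 2.48, 1.75 and 5.48 CPM in wild type and 3.75, 4.88 and 2.33 CPM in Ythdf2-/-, and Hist3h2a (chr11:58954685-58955192, plus strand), an H2A gene, had 7.78, 5.26 and 11.97 CPM against 7.24, 9.47 and 4.34 CPM. Both were highest in wild type 3, at 259% and 184% of the mean of the other wild-type libraries. Their log2 fold changes were 0.18 ± 0.52 and -0.25 ± 0.42, and 0.79 ± 0.41 and 0.11 ± 0.37 without it.

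The Hist class holds 6 linker histone genes, the testis gene Hist1h1t among them. Hist1h1c, the most abundant of them (chr13:23738807-23739531, plus strand) had 14.3, 12.05 and 15.9 CPM in wild type and 20.45, 17.75 and 13.2 CPM in Ythdf2-/-. Ythdf2-/- 1 and 2 exceeded every wild-type library and Ythdf2-/- 3 did not (log2 fold change 0.28 ± 0.23, and 0.38 ± 0.22 without wild type 3). Hist1h1e (chr13:23621777-23622558, minus strand) had 3.08, 2.135 and 0.914 CPM against 2.73, 2.37 and 1.45 CPM (log2 fold change 0.09 ± 0.50, and -0.25 ± 0.38 without wild type 3). Hist1h1b (chr13:21779832-21780625, minus strand), all of whose windows are unique, had 17, 16 and 0 counts in wild type and 4, 14 and 5 in Ythdf2-/-. Wild type 3 was the lowest for both of these genes, and without it the log2 fold change of Hist1h1b was -1.13 ± 0.55 (adjusted p = 0.355, edgeR), against -0.58 ± 1.03 with it.

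**Figure D4:**
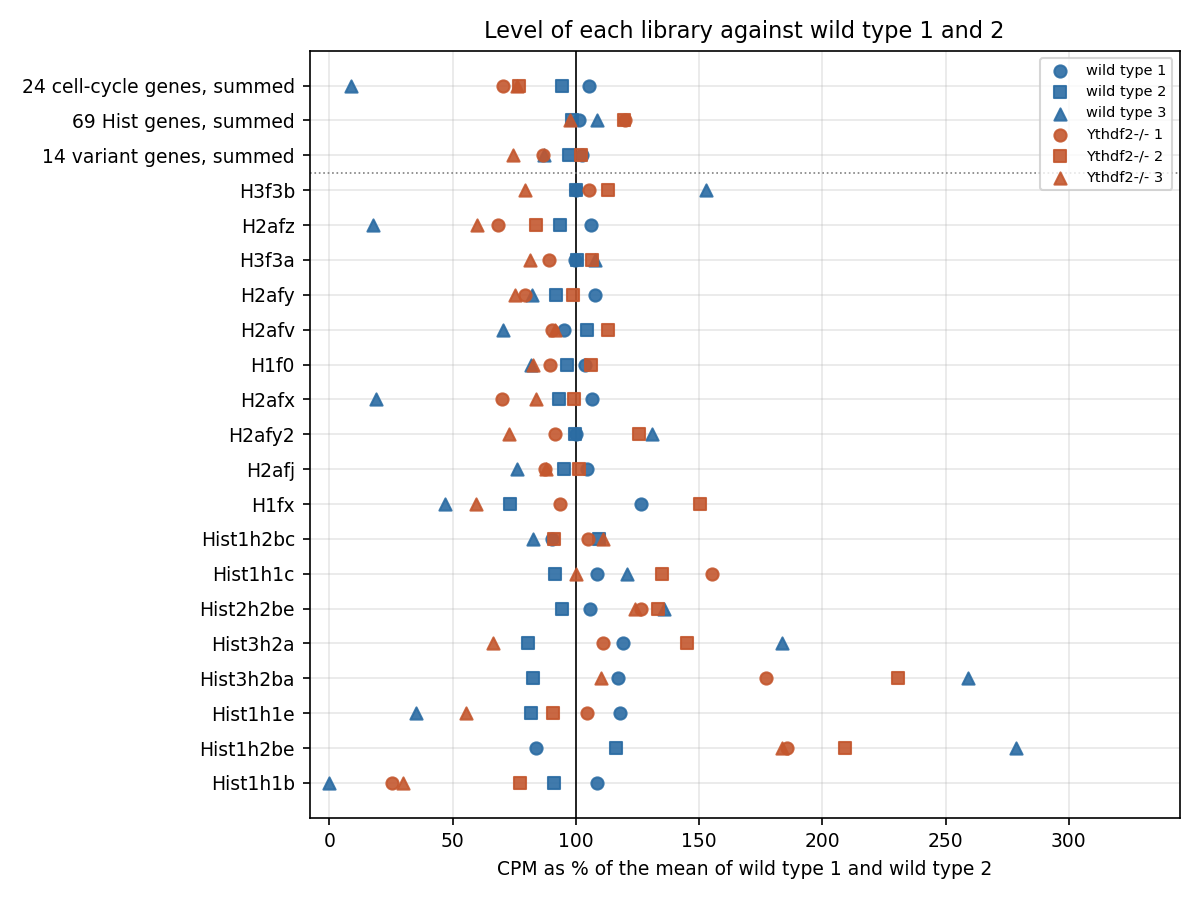
CPM of each library as a percentage of the mean of wild type 1 and wild type 2 (x axis), for 3 sums above the dotted line and the 18 histone genes tested below it. Wild type 3 (blue triangles) is at 8.69% for the cell-cycle sum, 17.6% for H2afz, 19.0% for H2afx and 0 for Hist1h1b, and above 250% for Hist3h2ba and Hist1h2be.

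Promoter letters were compared between members that differed in wild type 3. RefSeq promoters of GRCm38.p6 were given for 74 of the 83 members, 1 or more windows each (63 windows of Hist genes and 12 of variants). Hist1h2bc, Hist2h2be and H2afx were not among them. In the 250 bases before the start, on either strand, CCAAT was found in 52 of 63 Hist windows, in 7 of 12 variant windows and in 33.85% of all 32851 promoters. The octamer ATTTGCAT, known from H2B promoters, was found in 14, 1 and 1.60%, and TATAAA in 29, 1 and 12.4%. No motif of the 3 contains another. The windows of H2afz and Hist1h1b, both low in wild type 3, and of H3f3b, higher in it, are shown with these matches in capitals.
H2afz promoter: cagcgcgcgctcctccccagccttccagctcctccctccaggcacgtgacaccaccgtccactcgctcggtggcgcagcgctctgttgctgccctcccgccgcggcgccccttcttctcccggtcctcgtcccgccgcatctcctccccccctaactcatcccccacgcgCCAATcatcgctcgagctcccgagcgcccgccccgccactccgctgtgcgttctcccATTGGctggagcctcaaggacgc
Hist1h1b promoter: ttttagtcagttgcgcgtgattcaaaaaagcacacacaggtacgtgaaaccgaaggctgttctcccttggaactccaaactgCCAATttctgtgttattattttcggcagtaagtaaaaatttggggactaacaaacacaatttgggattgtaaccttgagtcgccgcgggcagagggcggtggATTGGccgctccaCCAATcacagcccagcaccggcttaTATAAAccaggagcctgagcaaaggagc
H3f3b promoter: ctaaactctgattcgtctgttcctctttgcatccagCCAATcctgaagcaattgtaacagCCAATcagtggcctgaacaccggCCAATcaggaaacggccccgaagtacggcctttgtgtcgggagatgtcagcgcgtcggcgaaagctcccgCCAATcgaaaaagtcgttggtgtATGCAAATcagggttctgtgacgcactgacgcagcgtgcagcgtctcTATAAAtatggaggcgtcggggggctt
They cover chr3:137864237-137864486 (plus strand), chr13:21780626-21780875 (minus strand) and chr11:116024505-116024754 (minus strand). H2afz had 2 CCAAT matches and neither of the other motifs, Hist1h1b had 3 CCAAT matches and 1 TATAAA, and H3f3b had 4 CCAAT matches, 1 octamer and 1 TATAAA. Among the 18 members tested, Hist1h2be, Hist3h2ba and Hist3h2a stood highest in wild type 3 relative to the other wild-type libraries. Hist3h2ba had 4 CCAAT matches, 0 octamers and 2 TATAAA, and Hist3h2a had 2 CCAAT matches, 1 octamer and 0 TATAAA. Each of the 2 windows of Hist1h2be had 3 CCAAT matches and no TATAAA, with 1 octamer in 1 of them. Of other tested members low in wild type 3, Hist1h1e had 1 CCAAT match, 0 octamers and 1 TATAAA, and H1fx had no match to any of the 3 motifs.

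The genes that serve histone mRNAs and histone proteins were followed as fixed lists. Of 22 genes of histone mRNA transcription and 3′ processing, all tested, 0 were higher and 1 was lower in Ythdf2-/- at an unadjusted p under 0.05, beside 3.63% of all genes (median log2 fold change -0.03). That gene was Sympk, a scaffold of the 3′ end cleavage complex, with 131, 128 and 141 CPM in wild type and 110.1, 116 and 102 CPM in Ythdf2-/- (log2 fold change -0.28 ± 0.12, and -0.24 without wild type 3), and its adjusted p missed the threshold. The other abundant members were Cstf2 and Srrt, at log2 fold changes of -0.17 ± 0.16 and -0.19 ± 0.17, and of -0.060 and -0.33 without wild type 3. Of 28 histone chaperone and deposition genes, all tested, 0 passed in either direction (median -0.02, and -0.22 without wild type 3). The most abundant were Npm1 (-0.31 ± 0.25, and -0.52 without wild type 3), Nap1l1 (-0.14 ± 0.25, and -0.35) and Anp32e, the chaperone that removes H2A.Z, whose sign turned (0.09 ± 0.30, and -0.18). Of the 24 cell-cycle genes, 0 passed (median -0.03, and -0.54 without wild type 3). The most abundant of them, all with a sign that turned, were Mki67 (0.48 ± 1.15, and -0.097 without wild type 3), Top2a (0.23 ± 1.22, and -0.35) and Rrm1 (0.03 ± 0.58, and -0.43).

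RNAs that, like most Hist mRNAs, have no poly(A) tail were summed as well. The 128 small nucleolar, small nuclear and other RNAs of this list summed to 74.6, 75.3 and 61.8 CPM in wild type and to 64.8, 53.0 and 61.8 CPM in Ythdf2-/-, about the level of the Hist sum. Of the 34 tested, 0 were higher and 2 were lower in Ythdf2-/- at an unadjusted p under 0.05, beside 3.63% of all genes. These 2 were Snora61 (log2 fold change -0.88 ± 0.32, and -0.99 without wild type 3) and Snord32a (-1.10 ± 0.41, and -1.08), neither of them past the adjusted threshold. The most abundant were Snora65 (-0.29 ± 0.49, and -0.57), Snord22 (-0.44 ± 0.29, and -0.41) and Snora68 (-0.19 ± 0.43, and -0.51). The median of the 34 was -0.23 (12 above 0 and 22 below), and -0.39 without wild type 3. Many RNAs of this list lie in introns of other genes, so their counts can include host transcripts. The 6 histone genes of testis or germ cells together had 0 to 3 counts per library.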

How the data were processed

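RNA-seq input libraries from 3 wild-type and 3 Ythdf2-/- neurosphere cultures were analysed. The authors deposited whole-number counts per RefSeq gene symbol, not normalized, and, per library, a table with expected counts, TPM and FPKM. The submitters' processing notes name mm10, Bowtie2 2.2.9, RSEM 1.2.15 and featureCounts, whereas the study's methods name TopHat; the counting of multi-mapping and overlapping reads, and its strand setting, are not given in the sources used here. The deposited expected counts summed to 1.97% to 2.40% of the raw counts, so FPKM served only as an alternative and TPM was not used.

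Genes passing filterByExpr (13112) were tested with edgeR 4.0.16 in R 4.3.3 (TMM factors of 0.988 to 1.03, glmQLFit with the robust option, glmQLFTest, Benjamini-Hochberg adjustment over all genes), with genotype as the only term. CPM used the TMM-scaled totals, and RPKM divided CPM by the transcript length listed in the deposited tables. Summed CPM covers all members of a class, tested or not. Alternatives were DESeq2 1.42.0, limma 3.58.1 (voom, voom with sample quality weights, trend on log2(FPKM + 1) and log2(FPKM + 0.1)), other scalings and filters, a replicate block, a term for Y-linked reads and leaving out each library. The edgeR script was tested on simulated data. Uniqueness is the share of exonic windows of 50 bases found once in GRCm38, on either strand. The stem-loop was searched within 400 bases after the stop codon of each transcript and poly(A) signals in the last 40 bases of each transcript, by scripts in Python 3.11.15. The genes named were every tested variant, every tested Hist gene with a mean of at least 5 CPM, the 5 largest changes of tested Hist genes in each direction, members under an unadjusted p of 0.05, Ythdf2, and of each pathway list the 3 most abundant genes and those under that p. Members and lists were chosen with earlier results of these data known. Trim17, Aifm2, the progenitor markers, the low members listed with counts or under an alternative and the genes at 0 were named after their values were seen.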

Additional observations from a re-analysis of the deposited data

How the results depend on the processing

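The count of histone genes past an adjusted p of 0.05 stayed at 0 under every alternative run on the counts, where DESeq2 called 31, voom quality weights 632 and the Y-linked term 13 of all 13112 genes, and each of the others 0 to 2 of the genes it tested. The count with an unadjusted p under 0.05, 0 in the reported fit, was 3 of 70 members with no filter beyond 1 count (H2afb3, Hist3h2bb-ps and Hist1h4k, 4.29%, against 3.35% of all genes), 7 of 18 with voom quality weights (38.9% against 29.9%), 1 of 18 with a term for Y-linked reads (H3f3b, 5.56%, against 1436 of all 13112 genes) and 0 to 2 when a library was left out, the 2 without wild type 3. On log2(FPKM + 1) it was 5 of 36 (Hist2h2aa2, Hist2h2aa1, H2afb3, Hist3h2a and Hist1h2af, 13.9% against 2.88%) and on log2(FPKM + 0.1) 2 of 36 (Hist2h2aa2 and H2afb3, 5.56% against 2.78%). The number of members whose groups do not overlap was 7 of 70 with no filter (10.0%, against 9.29% of all genes) and 0 to 4 when a library was left out, the 4 without wild type 3 (19.0% against 38.9%). Deviations of same-numbered libraries from their group means correlated at -0.248, -0.244 and -0.394. With 3 libraries per group these deviations depend on each other, so the values cannot show whether the replicate numbers pair the samples. With the replicate block 0 members had an unadjusted p under 0.05, and H2afz turned to a log2 fold change of 0.30. With a library left out, the median log2 fold change ranged from 0.00 to 0.31 for Hist genes and from -0.14 to 0.08 for variants, and the log2 ratio of summed CPM from 0.08 to 0.22 and from -0.25 to -0.02. The variant median was 0.37 on log2(FPKM + 1), and the Hist median -0.11 on that scale and -0.028 with no filter (58 Hist genes).

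For Ythdf2 the adjusted p fell below 0.05 with DESeq2 (log2 fold change -2.67), upper-quartile factors (-2.66), no filter (-2.64), at least 10 counts in every library (-2.66), voom quality weights (-2.61) and the Y-linked term (-2.75), and stayed above it with plain voom (0.0727), no TMM factors (0.0722) and the replicate block (0.9999). With a library left out, fold changes ran from -2.78 to -2.54 and adjusted p-values from 0.0203, without wild type 3, to 0.866. On FPKM it turned to 0.32 and, with the pseudocount of 0.1, to 1.13, where 5 of 6 libraries list Ythdf2 at 0 expected counts.

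None of the 18 member fold changes was called, and 7 (H2afy, H2afy2, H3f3a, H3f3b, Hist1h1c, Hist1h2bc and Hist2h2be) kept their sign under every alternative on the counts. Signs turned with voom quality weights for H1fx (-0.0055), H2afj (-0.14), H2afv (-0.11), H2afx (-0.35), Hist1h1e (-0.053) and Hist3h2a (0.11), with plain voom for H2afz (0.34) and Hist1h1b (0.32), with the Y-linked term for H2afz (0.68), Hist1h1b (0.050) and Hist3h2ba (-0.12), and for H2afj with DESeq2 (-0.0063) and upper-quartile factors (-0.0032). With a library left out they spanned 0 for H1f0 (-0.12 to 0.060), H1fx (-0.10 to 0.75), H2afj (-0.12 to 0.10), H2afv (-0.024 to 0.25), H2afx (-0.24 to 0.59), H2afz (-0.50 to 0.35), Hist1h1e (-0.25 to 0.50), Hist1h2be (-0.021 to 0.94), Hist3h2a (-0.51 to 0.11) and Hist3h2ba (-0.12 to 0.79). On log2(FPKM + 1) and log2(FPKM + 0.1) they turned for H2afx (-0.48 and -1.46), H2afy (0.070 and 0.15), H2afy2 (0.73 and 0.77), H2afz (0.67 and 1.69), H3f3a (1.77 and 2.85), Hist1h1c (-1.10 and -2.14) and Hist1h1e (-0.89 and -1.93). The cause was not tested. The FPKM values of the named Hist genes rest on 1 to 14.7 expected counts over the 6 libraries. Those of the tested variants rest on 9.36 (H2afx) to 49.1 (H3f3a). The smallest p that permuting 3 libraries against 3 allows, in an exact two-sided test, is 0.1.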
